A study of Mus musculus with 10 samples.

Results

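The E2F genes encode the transcription factors that couple the cell cycle machinery to the genes of DNA replication, and their transcripts were followed in mouse thymocytes sorted as positive for both CD4 and CD8 (double-positive, DP). The family was taken as the 8 genes E2f1 to E2f8, found by gene symbol among the 19937 genes named on the array. All 8 were listed, and all 8 passed the filter on low intensity that kept 13138 genes for testing. E2f3 had 2 probe sets, of which the one with the higher mean intensity was used, and the other 7 genes had 1 probe set each. Levels are log2 of the deposited intensity, so a difference of 1 is a doubling, and levels of different genes cannot be set against each other because each probe set has its own affinity.

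RNA came from DP thymocytes and was measured on 10 Affymetrix arrays. The labels name the arrays of a genotype as biological replicates, and each array was taken as a separate mouse. Both E2A and HEB were missing in DKO (E2Aflox/flox HEBflox/flox cd4-cre+, n = 3), HEB alone was missing in HEBKO (HEBflox/flox cd4-cre+, n = 2), E2A alone in E2AKO (E2Aflox/flox Cd4-cre+, n = 2), and WT (wild-type cd4-cre+, n = 3) kept both. All mice were 8 weeks old and all carried the Cre transgene driven by Cd4, so deletion is limited to cells that have switched Cd4 on, and the controls share any effect of Cre itself. E2A (gene Tcf3) and HEB (gene Tcf12) are basic helix-loop-helix proteins that bind E-box sequences and dominate transcription in DP cells. Per the series' description, cells were sorted on CD4 and CD8 to a purity above 98%, with about 1000000 cells per sample.

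E2F proteins bind DNA at the promoters of genes for S phase and mitosis. E2F1, E2F2 and E2F3 are classed as activators, E2F4 and E2F5 work mainly as repressors together with the pocket proteins p107 and p130, E2F6 represses through Polycomb complexes without a pocket protein, and E2F7 and E2F8 are atypical repressors that bind without a dimerisation partner. Cyclin-dependent kinases release the activators by phosphorylating the retinoblastoma protein. In the thymus, cells divide in a burst as they become DP and then rest while they rearrange the T cell receptor alpha genes. Mouse knockouts have tied E2F1 to thymocyte death and E2F2 to restraint of T cell proliferation.

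Median intensity per array ran from 92.6 to 98.6, and no pair of arrays held identical values. Tcf3 fell in DKO by 0.66 ± 0.11 (log2, SE; limma adjusted p = 0.00256) and Tcf12 by 1.13 ± 0.10 (limma adjusted p = 3.07e-05), and each was lower in both arrays of its single knockout than in every WT array. The deleted exons are not given in the sources used here, and the probe sets may lie partly outside them, so the signal that remains does not measure intact transcript. Markers of DP cells were lower in DKO: 7 of 9 tested fell, with a median difference of -0.99, and their log2 summed intensity was 14.50 to 14.75 in DKO, 15.04 to 15.46 in HEBKO, 15.51 to 15.55 in E2AKO and 15.53 to 15.61 in WT. Markers of mature single-positive T cells rose in DKO, 6 of 6 tested, with a median of 2.63, and their log2 summed intensity was 11.56 to 12.11 in DKO, 9.40 to 10.24 in HEBKO, 9.37 to 9.73 in E2AKO and 9.53 to 9.57 in WT. Of 6 NK and NKT marker genes on the array, only 2 were bright enough to test, and both rose in DKO. The others were below the 40th percentile in every array. Of the other marker lists, 2 of 5 tested immature thymocyte genes rose, with Il7r counted in both thymocyte lists. In DKO 1 gene each fell among B cell (2 tested of 6 on the array), myeloid (2 of 6) and thymic epithelial (5 of 7) genes. No dendritic (of 2) or erythroid (of 1) gene passed. Over all 13138 tested genes, 8.18% rose and 5.41% fell in DKO. The part of these shifts in the E2F results was not tested. In bulk RNA, fewer cells of a type and less RNA per cell cannot be told apart.

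Loss of both E2A and HEB changed 3 of the 8 E2F genes, each in a different class of the family. The activator E2f2 fell 2.06-fold, the pocket-protein partner E2f4 fell 1.83-fold, and the Polycomb-linked E2f6 rose 1.78-fold. E2f1, E2f3, E2f5, E2f7 and E2f8 did not pass. Over all 13138 genes, 13.6% passed in the same comparison (8.18% up and 5.41% down), beside 1 rise and 2 falls among the 8 members. With 8 genes, each call weighs heavily in that count, and it is given as a description. Without regard to the test, all 3 DKO arrays lay outside the WT range on 1 side for 5 of the 8 genes, with E2f5 and E2f6 higher and E2f2, E2f4 and E2f7 lower. The same held for 16.7% of all tested genes upward and 13.4% downward.

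**Figure D1:**
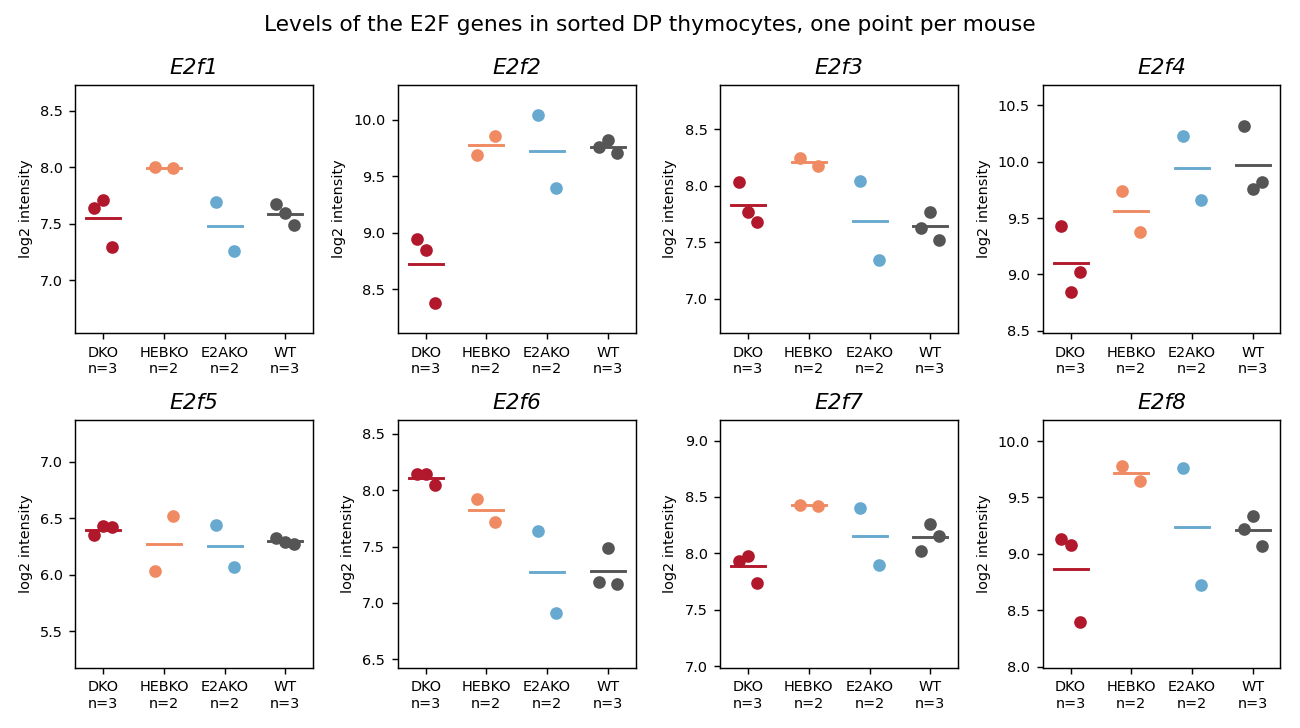
Log2 intensity of each E2F gene (vertical axis, 1 panel per gene, each with its own scale) in every array, with DKO, HEBKO, E2AKO and WT from left to right and a bar at each group mean. The 3 DKO points of E2f2 lie below all 7 others and those of E2f6 above all 7 others, while the 2 E2AKO points of most genes are far apart.

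The plot of levels by genotype shows the 2 opposite shifts in DKO most clearly for E2f2 and E2f6. It also shows that the 2 HEBKO points stand close together for E2f1, E2f7 and E2f3.

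Among the activators, E2f2 had the largest difference. Its log2 intensity was 8.94, 8.85 and 8.38 in DKO, 9.69 and 9.86 in HEBKO, 10.04 and 9.40 in E2AKO, and 9.76, 9.82 and 9.71 in WT. All 3 DKO arrays were lower than each of the 7 other arrays, and the 3 other genotypes overlapped one another. On the linear scale the mean was 428 ± 83 in DKO, 878 ± 73.4 in HEBKO, 865 ± 265 in E2AKO and 869 ± 35.8 in WT (SD). The log2 difference of DKO from WT was -1.04 ± 0.17 (SE, 95% interval -1.41 to -0.67, limma adjusted p = 0.00173), a 2.06-fold lower level. Neither single knockout passed for E2f2: HEBKO differed from WT by 0.01 ± 0.19 (interval -0.40 to 0.43) and E2AKO by -0.04 ± 0.19 (interval -0.46 to 0.38). A model term for the departure of DKO from the sum of both single losses was -1.01 ± 0.27 for E2f2 (interval -1.60 to -0.43), which did not pass over all genes (limma adjusted p = 0.171).

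The promoter windows of E2f2 are shown because E2f2 was the only member whose difference in the fit to all arrays passed against WT and against both single knockouts. RefSeq (GRCm38.p6) lists 2 starts for E2f2 on the plus strand of chromosome 4, and each window covers 250 bases before and 50 bases after the start. Windows were searched on both strands for an E2F site (TTTCCCGC, TTTGGCGC, TTTCGCGC or TTTGCCGC), for the E-boxes CAGCTG and CAGGTG, and for the cell cycle homology region (CHR) element TTTGAA bound by MuvB complexes. The first window, which starts at chr4:136172024, held 1 E2F site that begins 40 bases after the start, at chr4:136172302-136172323 with its flanks, and no E-box of either kind. It held no CHR element either. The second window, at the downstream start, held a CAGGTG E-box 15 bases before the start and a CHR element 31 bases before it, both in capitals in the 250 bases of chr4:136180532-136180781. Which of the 2 starts DP cells use was not examined. The E-box and the CHR element therefore cannot be assigned to the promoter in use. Of 32851 promoter windows of this length, 2.26% held an E2F site, 16.3% CAGCTG, 20.2% CAGGTG and 17.9% the CHR element. A match describes these letters and is not evidence of binding.
E2f2 first start, E2F site in capitals: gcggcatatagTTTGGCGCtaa
E2f2 second start, CHR element and then E-box in capitals: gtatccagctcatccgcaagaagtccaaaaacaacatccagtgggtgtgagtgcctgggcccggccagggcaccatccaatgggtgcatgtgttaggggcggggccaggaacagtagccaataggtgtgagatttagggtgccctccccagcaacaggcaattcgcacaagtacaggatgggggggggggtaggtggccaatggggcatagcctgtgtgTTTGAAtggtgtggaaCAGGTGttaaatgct

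E2f1 behaved differently from E2f2 across the genotypes. E2f1, the activator best known for driving cell death as well as S phase, read 7.64, 7.71 and 7.29 in DKO, 8.00 and 7.99 in HEBKO, 7.69 and 7.26 in E2AKO, and 7.67, 7.59 and 7.49 in WT. Both HEBKO arrays were higher than the 8 others, and the DKO, E2AKO and WT arrays overlapped. DKO differed from WT by -0.03 ± 0.14 (interval -0.33 to 0.26, limma adjusted p = 0.917). The HEBKO difference from WT was 0.41 ± 0.15 (interval 0.08 to 0.74), short of the threshold (limma adjusted p = 0.206).

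E2f3, the third activator, read 8.03, 7.77 and 7.68 in DKO, 8.25 and 8.18 in HEBKO, 8.04 and 7.34 in E2AKO, and 7.63, 7.77 and 7.52 in WT. The HEBKO arrays were again above all others, and the DKO range overlapped that of WT. The differences from WT were 0.19 ± 0.16 in DKO (limma adjusted p = 0.529) and 0.57 ± 0.18 in HEBKO (interval 0.18 to 0.96, limma adjusted p = 0.145). On the second probe set of E2f3, the differences were 0.04 ± 0.15 in DKO and 0.54 ± 0.17 in HEBKO.

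E2f4, the most studied partner of p130 in resting cells, was the member that fell next to E2f2. Its log2 intensity was 9.43, 8.84 and 9.02 in DKO, 9.74 and 9.38 in HEBKO, 10.23 and 9.66 in E2AKO, and 10.32, 9.76 and 9.82 in WT. Every DKO array was lower than every WT and E2AKO array, but DKO 1 lay above the lower HEBKO array. The group mean was 9.09 ± 0.30 in DKO, 9.56 ± 0.25 in HEBKO, 9.95 ± 0.40 in E2AKO and 9.96 ± 0.31 in WT (SD), and neighbours in this order overlapped. The difference of DKO from WT was -0.87 ± 0.20 (interval -1.31 to -0.43, limma adjusted p = 0.0139). The call was lost without WT 1 (-0.69, adjusted p = 0.0572), without DKO 2 (-0.74, 0.0605) or without DKO 3 (-0.83, 0.055). HEBKO differed from WT by -0.40 ± 0.22 (limma adjusted p = 0.403), with both arrays below all WT arrays.

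E2f5, the other pocket-protein repressor, was close to the lower limit of measurement. It read 6.35, 6.43 and 6.42 in DKO, 6.03 and 6.52 in HEBKO, 6.44 and 6.07 in E2AKO, and 6.33, 6.29 and 6.27 in WT, where the 40th percentile of the arrays was 6.03 to 6.13. One HEBKO array and 1 E2AKO array fell below their own 40th percentile. DKO differed from WT by 0.11 ± 0.13 (limma adjusted p = 0.676), and a change in E2f5 would be understated at this intensity.

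E2f6, the repressor that recruits Polycomb proteins and keeps germline genes silent in somatic cells, was the member that rose. Its log2 intensity was 8.14, 8.14 and 8.05 in DKO, 7.92 and 7.72 in HEBKO, 7.64 and 6.91 in E2AKO, and 7.19, 7.49 and 7.17 in WT. The DKO arrays were above all others, the HEBKO arrays came next without overlapping DKO, E2AKO or WT, and the E2AKO arrays lay on either side of WT. Mean intensity was 276 ± 9.96 in DKO, 227 ± 21.7 in HEBKO, 160 ± 56.3 in E2AKO and 156 ± 20.0 in WT (SD). The differences from WT were 0.83 ± 0.16 in DKO (interval 0.48 to 1.19, limma adjusted p = 0.00546), 0.54 ± 0.18 in HEBKO (interval 0.14 to 0.94, limma adjusted p = 0.167) and -0.00 ± 0.18 in E2AKO (interval -0.40 to 0.40). DKO stood 0.29 ± 0.18 above HEBKO, which did not pass (limma adjusted p = 0.544). The E2f6 window on chromosome 12 held none of the 4 motifs searched.

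The atypical members E2f7 and E2f8, which repress S-phase genes late in the cycle and are themselves E2F targets, shared a pattern. E2f7 read 7.93, 7.98 and 7.74 in DKO, 8.43 and 8.42 in HEBKO, 8.40 and 7.90 in E2AKO, and 8.02, 8.26 and 8.15 in WT. E2f8 read 9.13, 9.08 and 8.40 in DKO, 9.78 and 9.65 in HEBKO, 9.76 and 8.72 in E2AKO, and 9.22, 9.34 and 9.07 in WT. For both genes the HEBKO arrays were above all DKO and WT arrays. All DKO arrays were below all WT arrays for E2f7, whereas for E2f8 the DKO and WT arrays overlapped and DKO 3 was the lowest of the 10. DKO differed from WT by -0.26 ± 0.13 for E2f7 (interval -0.55 to 0.02, limma adjusted p = 0.235). For E2f8 that difference was -0.34 ± 0.24 (interval -0.87 to 0.19, limma adjusted p = 0.436). In HEBKO the differences from WT were 0.28 ± 0.15 for E2f7 (limma adjusted p = 0.358) and 0.51 ± 0.27 for E2f8 (limma adjusted p = 0.379).

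Motif matches in the windows of E2f3, E2f7 and E2f8 are shown beside that of E2f2 because these genes are described as targets of E2F or MuvB complexes. E2f3 has 2 windows on the minus strand of chromosome 13, and the second held an E2F site 11 bases before the start (chr13:29986056-29986085) and a CHR element 23 bases before it. The E2f7 window on the plus strand of chromosome 10 held an E2F site 198 bases before the start (chr10:110745230-110745259). The E2f8 window on the minus strand of chromosome 7 held a CHR element 20 bases before the start, read on the opposite strand (chr7:48881598-48881627). The 1 window listed for E2f1 (chr2:154569377-154569676) held none of the 4 motifs. Sequence outside that window was not searched, so nothing is said of other starts of E2f1. Windows were at hand for 6 of the 8 members, without E2f4 and E2f5. Capitals mark the match, and the E2F sites of E2f3 and E2f7 are likewise TTTCCCGC read on the opposite strand.
E2f3 second start, E2F site: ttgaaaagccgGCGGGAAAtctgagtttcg
E2f7, E2F site: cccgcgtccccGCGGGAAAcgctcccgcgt
E2f8, CHR element: agcgggttaatTTCAAAtcgggggctggac

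**Figure D2:**
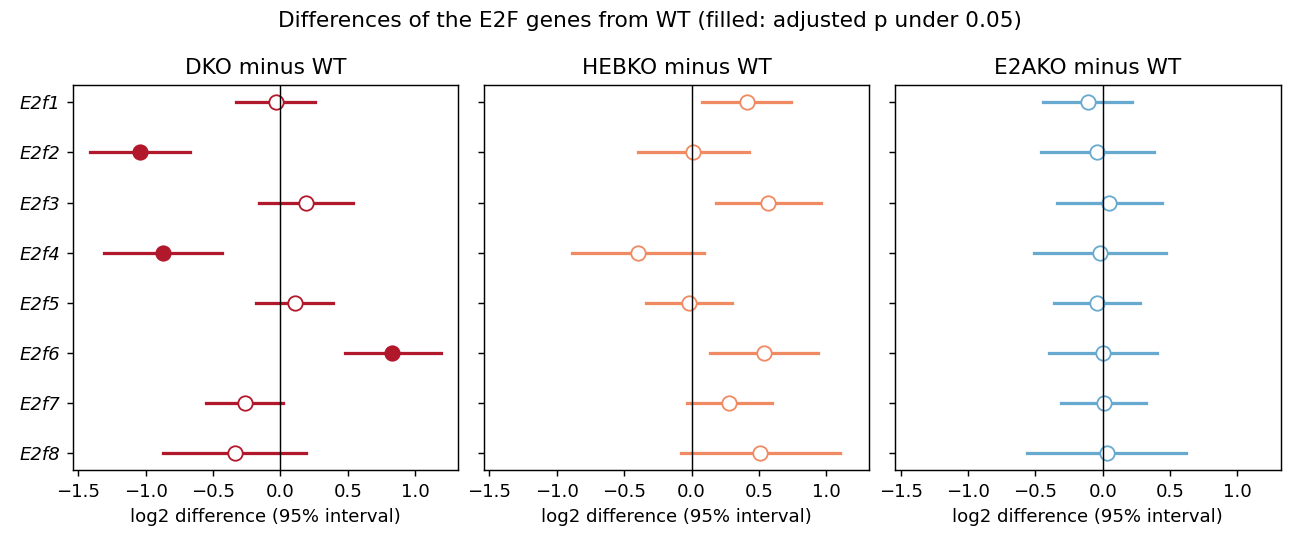
Log2 difference of each E2F gene (from top to bottom) from WT in DKO, HEBKO and E2AKO (panels from left to right), with the 95% interval of the limma fit as a bar and a filled point where the adjusted p was under 0.05. Filled points are E2f2, E2f4 and E2f6 in DKO, and the HEBKO intervals of E2f1, E2f3 and E2f6 lie above 0 without passing over all genes.

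Loss of HEB alone moved no E2F gene past the test, although most members were higher. By limma, 0 of 8 passed, against 0.906% of all genes (0.274% up and 0.632% down). An unadjusted p under 0.05 was reached by 3 of 8 (E2f1, E2f3 and E2f6), with a lowest adjusted p of 0.145. The share of all tested genes at an unadjusted p under 0.05 was not computed for any comparison, so such counts are descriptions throughout. No alternative processing called any member in HEBKO. The median of the 8 differences was 0.35, beside -0.00 over all tested genes. Both HEBKO arrays were above all WT arrays for 5 of the 8 genes (E2f1, E2f3, E2f6, E2f7 and E2f8) and below them for 1 (E2f4). Over all tested genes the shares were 16.5% above and 14.0% below. E2f2, which differed by 0.01, was the activator whose HEBKO arrays did not both lie above WT.

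No E2F gene passed the test after loss of E2A alone. By limma, 0 of 8 passed, where 0% of all genes did, 0 of 8 had an unadjusted p under 0.05, and the lowest adjusted p was 0.998, with 0 calls in every alternative. The differences ran from -0.11 for E2f1 to 0.05 for E2f3. Their intervals were wide, and that of E2f8 was -0.56 to 0.62. For 0 of 8 members did both E2AKO arrays lie on 1 side of WT, where 5.82% of all tested genes were higher and 10.6% lower. The 2 E2AKO mice differed from each other: E2AKO 1 was above all WT arrays for 7 of the 8 genes and E2AKO 2 below all WT arrays for 8 of 8. Both held at once for 7 of 8 members, whereas over all tested genes 19.9% had E2AKO 1 above WT, 25.3% had E2AKO 2 below WT and 5.22% had both.

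In the comparisons of DKO with each single knockout, E2f2 again had the largest difference of the 8 members. DKO was lower than HEBKO in E2f2 by 1.05 on the log2 scale (-1.05 ± 0.19, limma adjusted p = 0.00961), the 1 member of 8 called where 3.63% of all genes were (2.15% up and 1.48% down). That call was lost without HEBKO 2 (-0.97, adjusted p = 0.0979). E2f7 (-0.55 ± 0.15, limma adjusted p = 0.0667), E2f8 (-0.85 ± 0.27, limma adjusted p = 0.128) and E2f1 (-0.44 ± 0.15, limma adjusted p = 0.159) had an unadjusted p under 0.05 in the same comparison without passing. E2f7 passed when only DKO and HEBKO were fitted (adjusted p = 0.0442), and E2f7 and E2f8 both passed without either E2AKO array (adjusted p = 0.0278 and 0.042).

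Against E2AKO, DKO was lower in E2f2 (-1.0 ± 0.19, limma adjusted p = 0.00628) and E2f4 (-0.85 ± 0.22, limma adjusted p = 0.034) and higher in E2f6 (0.83 ± 0.18, limma adjusted p = 0.0136). These are 3 of 8 genes, where 9.07% of all genes passed (5.10% up and 3.97% down). Calls were lost without 1 E2AKO array: without E2AKO 1, E2f2 stood at -0.68 (adjusted p = 0.0848) and E2f4 at -0.57 (0.311), and without E2AKO 2, E2f6 stood at 0.47 (0.135). E2f4 also lost its call here without DKO 2 (-0.73, 0.116) or DKO 3 (-0.81, 0.1). HEBKO and E2AKO differed in 0 of 8 members by limma (0.0381% of all genes passed, 0.00761% up and 0.0304% down), with 3 of 8 at an unadjusted p under 0.05. The departure from additivity passed for 0 of 8 members by limma (0.632% of all genes passed, 0.510% up and 0.122% down), with E2f2, E2f7 (-0.55 ± 0.21) and E2f8 (-0.88 ± 0.38) at an unadjusted p under 0.05.

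Transcripts of the proteins that E2F factors work with were compared next. Tfdp1 and Tfdp2, which encode the dimerisation partners of E2F1 to E2F6, differed in DKO from WT by 0.04 ± 0.10 and -0.07 ± 0.16 and were not called. Of the 3 pocket protein genes, Rbl2 fell in DKO, where 5.41% of all tested genes fell. Rbl2, which encodes p130, the usual partner of E2F4 in resting cells, read 9.97, 9.72 and 9.95 in DKO, 10.24 and 10.09 in HEBKO, 10.40 and 10.43 in E2AKO, and 10.28, 10.25 and 10.36 in WT. All DKO arrays were below all others. The difference from WT was -0.41 ± 0.10 (limma adjusted p = 0.0148), lost without WT 3 (adjusted p = 0.0722) or DKO 2 (0.0771), and DKO was also below E2AKO (-0.53 ± 0.11, limma adjusted p = 0.00932), a comparison chosen after its values were seen and a call lost without E2AKO 1 (adjusted p = 0.0608) or E2AKO 2 (0.0725). Rb1 (-0.07 ± 0.10) and Rbl1, the gene of p107 (0.19 ± 0.11), were not called.

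Upstream of the pocket proteins, 3 of 9 genes for G1 cyclins and their kinases changed in DKO, 2 up and 1 down, where 8.18% of all tested genes rose and 5.41% fell, and the list had a median of -0.07. Ccnd3, the D-type cyclin that early thymocytes need to expand, read 10.37, 10.13 and 9.95 in DKO, 10.54 and 10.90 in HEBKO, 11.06 and 10.67 in E2AKO, and 11.16, 10.94 and 11.02 in WT. The DKO arrays were the lowest 3 of the 10, and the difference from WT was -0.89 ± 0.14 (limma adjusted p = 0.00159). Its kinase partners were higher, with Cdk6 at 0.59 ± 0.12 (limma adjusted p = 0.00581) and Cdk4 at 0.55 ± 0.13 (limma adjusted p = 0.0183), a call lost without WT 3, DKO 1 or DKO 2. Cdk4 was also higher in HEBKO (0.73 ± 0.15, limma adjusted p = 0.0483), a call lost in 12 of 19 alternatives. Among 6 tested genes of CDK inhibitors, 0 passed in DKO by limma, with 2 at an unadjusted p under 0.05: Cdkn2d (-0.34 ± 0.11, limma adjusted p = 0.0589), which passed in 8 of 19 alternatives, and Cdkn2c (0.25 ± 0.10, limma adjusted p = 0.136). Cdkn2c, which encodes the Cdk4 and Cdk6 inhibitor p18, was called in HEBKO at 0.63 ± 0.11 (limma adjusted p = 0.0293), and that call was lost in 6 alternatives.

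Of 9 genes listed for the DREAM and MuvB complexes, Foxm1 fell in DKO and the other 8 did not pass. That share is close to the 13.6% called over all tested genes. Foxm1, the forkhead factor that joins MuvB at mitotic genes, read 9.0, 8.87 and 8.47 in DKO, 9.56 and 9.65 in HEBKO, 9.51 and 8.83 in E2AKO, and 9.29, 9.41 and 9.33 in WT. DKO was below all WT and HEBKO arrays and overlapped E2AKO. The difference from WT was -0.56 ± 0.17 (limma adjusted p = 0.0471), a call lost in 9 of 19 alternatives, and from HEBKO it was -0.82 ± 0.19 (limma adjusted p = 0.033), lost in 6 alternatives and chosen after its values were seen. Among 10 genes of the E2F6 Polycomb complex, L3mbtl2 alone passed and fell, at -0.47 ± 0.11 (limma adjusted p = 0.0123), a call lost without DKO 2 (adjusted p = 0.0578), and the list had a median of 0.10. This count of 1 in 10 is also near the 13.6% over all genes, so neither count sets these lists apart. The lists leave out members of the complexes that are given elsewhere here, and E2f4, Rbl2 and E2f6 among these were called in DKO. The counts therefore do not describe the whole complexes. L3mbtl2 encodes a chromatin reader found with E2F6, and its direction in DKO was opposite to that of E2f6. Of 5 germline genes known to be silenced by E2F6, 2 reached the intensity filter and 0 passed by limma (1 had an unadjusted p under 0.05), with Tuba3a at -0.24 ± 0.11 and Stag3 at -0.21 ± 0.12. Stag3 was close to the lower limit of measurement, with 2 DKO arrays below their own 40th percentile, so a change in it would be understated. Slc25a31, Smc1b and Tuba3b did not pass the intensity filter. Of 4 genes that act in E2F turnover, 0 passed in DKO by limma (0 at an unadjusted p under 0.05), with Cks1b at 0.49 ± 0.23 and Ccnf at -0.18 ± 0.19.

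**Figure D3:**
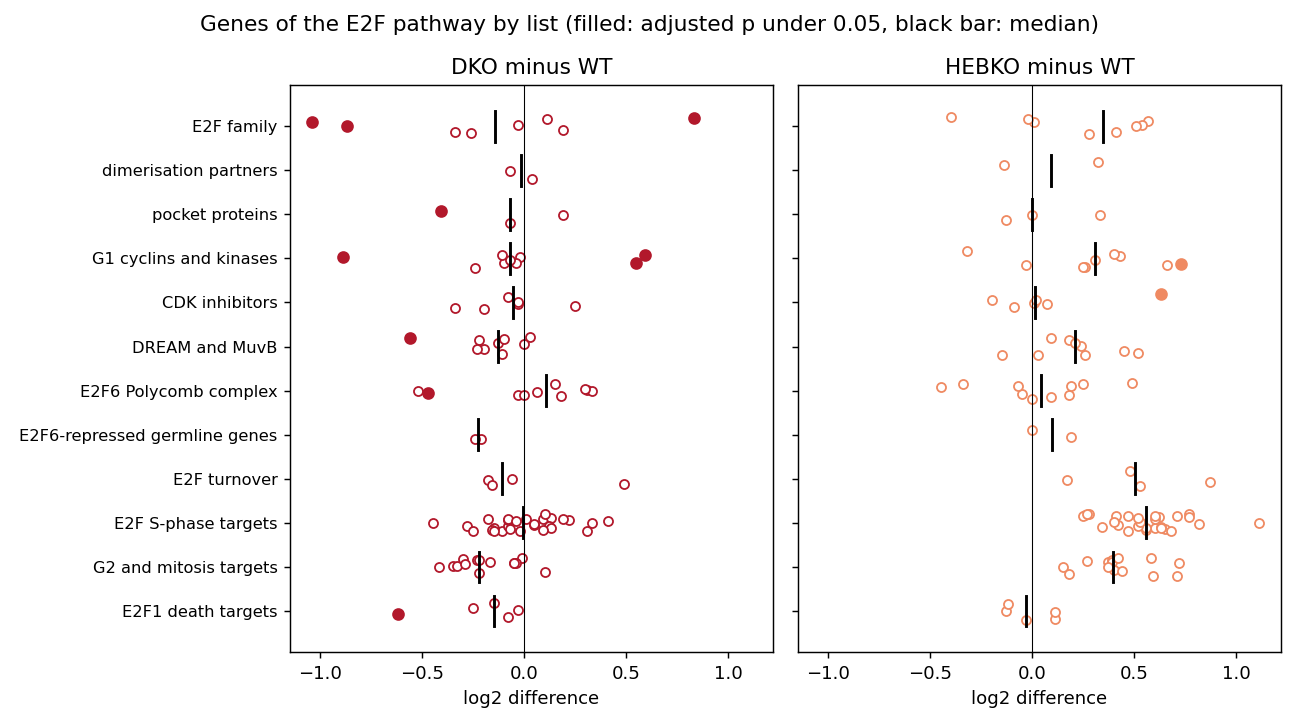
Log2 differences of the genes in the E2F family and in 11 lists of its partners and targets (from top to bottom), with DKO minus WT on the left and HEBKO minus WT on the right. Each circle is 1 tested gene, filled where the limma adjusted p was under 0.05, and the black bar is the list median; the 28 S-phase targets lie on both sides of 0 in DKO and all above 0 in HEBKO, where their median is 0.56.

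The genes that E2F factors act on were compared in the same arrays. Of 28 tested S-phase targets, 0 passed in DKO by limma, 1 had an unadjusted p under 0.05, and the median was -0.00 (range -0.45 to 0.41), beside -0.01 over all tested genes. Ccna2, which encodes cyclin A2, was at the low end (-0.45 ± 0.20, limma adjusted p = 0.18), and Gins1, a subunit of the replicative helicase, at 0.41 ± 0.22 (limma adjusted p = 0.28) was at the high end. Of 14 tested targets of G2 and mitosis, 0 passed in DKO by limma, with 1 at an unadjusted p under 0.05. Their median was -0.22, beside -0.01 over all tested genes, and 13 of the 14 differences were below 0. Mki67, the proliferation marker, stood at -0.42 ± 0.16 (limma adjusted p = 0.12) and the mitotic kinase gene Aurka at -0.35 ± 0.21. Among 5 tested death genes tied to E2F1, Bcl2l11, which encodes the killer protein Bim, fell by 0.62 ± 0.13 in DKO (limma adjusted p = 0.00753). The other 4 did not pass, and 5.41% of all tested genes fell. The difference of Bcl2l11 from HEBKO was -0.59 ± 0.14 (limma adjusted p = 0.0457, lost in 11 of 19 alternatives), chosen after its values were seen.

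In HEBKO, where the activators E2f1 and E2f3 and the repressors E2f6, E2f7 and E2f8 were above all WT arrays, the S-phase targets were above WT as well. All 28 differences were positive, with a median of 0.56 (-0.00 over all tested genes) and a range of 0.25 to 1.11. Of these, 20 had an unadjusted p under 0.05, yet 0 passed by limma, where 0.906% of all tested genes did. The shares of all tested genes above 0 or with an unadjusted p under 0.05 were not computed, so these counts are a description. The lowest adjusted p of the 28 was 0.0689, that of Gins1 (1.11 ± 0.25), which passed in 4 of 19 alternatives. The 14 mitotic targets were also all above 0 in HEBKO, with a median of 0.40, 0 called by limma and 4 at an unadjusted p under 0.05. In E2AKO the S-phase median was -0.07, with 0 of 28 called by limma and 0 at an unadjusted p under 0.05. Between DKO and HEBKO, all 28 S-phase differences were negative, with a median of -0.56, beside 0.00 over all tested genes. Of the 28, 1 passed, where 1.48% of all tested genes fell. This was Clspn, a replication checkpoint gene, at -0.78 ± 0.19 (limma adjusted p = 0.0457), a call lost in 10 of 19 alternatives and chosen after its values were seen. The 14 mitotic targets were also all below 0 between DKO and HEBKO, with a median of -0.62. Of these, 0 were called by limma and 13 had an unadjusted p under 0.05, again as a description. The comparisons of DKO and HEBKO with WT share the 3 WT arrays, and that of DKO with HEBKO shares the HEBKO arrays with that of HEBKO with WT.

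Some single mice deviated in the same direction in the median of the family and in that of its S-phase targets, and others did not. The median deviation of the S-phase targets from their WT mean was 0.11, 0.12 and -0.27 in DKO 1 to 3, 0.57 and 0.55 in HEBKO 1 and 2, 0.21 and -0.35 in E2AKO 1 and 2, and -0.15, 0.25 and -0.09 in WT 1 to 3. For the E2F family the same measure was -0.01, 0.00 and -0.35 in DKO, 0.35 and 0.34 in HEBKO, 0.27 and -0.31 in E2AKO, and 0.00, 0.09 and -0.11 in WT. DKO 3 and E2AKO 2 were the lowest mice of their groups on both measures, and both HEBKO mice were above all others. For G2 and mitosis targets, DKO 3 (-0.58) and E2AKO 2 (-0.42) were again the lowest 2 of the 10. The plot by mouse sets E2f2, E2f6 and E2f8 beside the S-phase median.

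**Figure D4:**
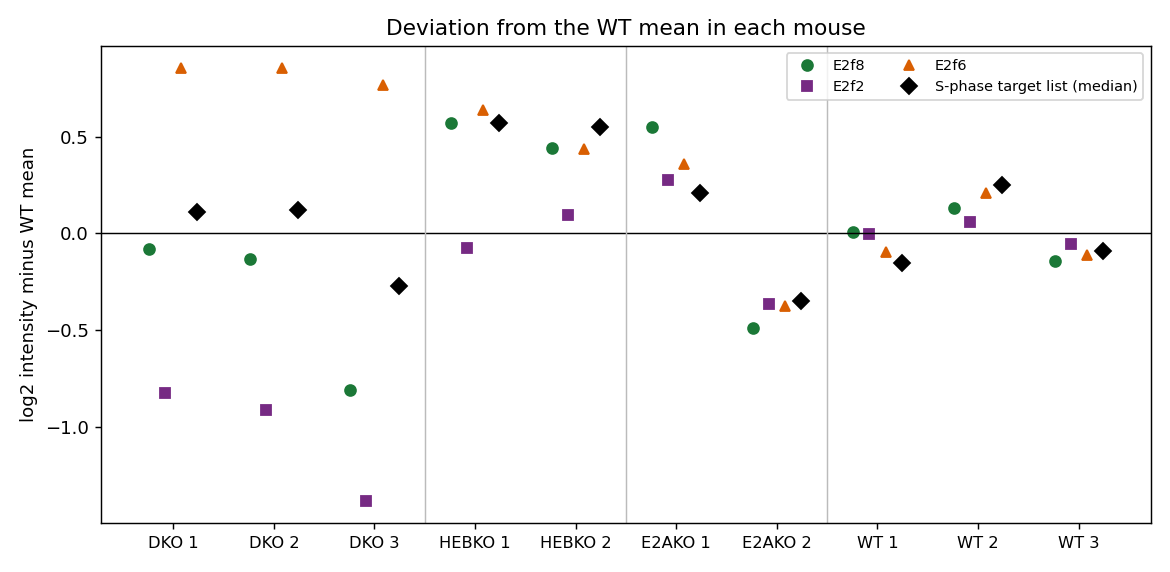
Deviation from the WT mean (log2 intensity, vertical axis) of E2f8, E2f2, E2f6 and the median of the S-phase targets in each of the 10 mice, with DKO, HEBKO, E2AKO and WT from left to right. In the DKO mice E2f6 is above 0 and E2f2 below it with the S-phase median between them, and in E2AKO all 4 measures are above 0 in mouse 1 and below 0 in mouse 2.

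Correlations between members are descriptions over 10 arrays that share 4 genotypes, and they carry no test. Within genotypes, the 2 arrays of HEBKO and of E2AKO deviate by equal and opposite amounts. The gap between E2AKO 1 and E2AKO 2 weighs heavily there, as for E2f3 (8.04 and 7.34) and E2f6 (7.64 and 6.91). E2f7 and E2f8 ran together over all arrays (Pearson r = 0.94) and within genotypes after removal of group means (r = 0.90). E2f8 ran with E2f1 (0.87 over all arrays, 0.96 within genotypes) and E2f2 (0.77 and 0.95). E2f2 and E2f6 went opposite ways over all arrays (-0.55) but together within genotypes (0.70), and E2f3 and E2f6 went together in both (0.65 and 0.91). E2f4 and E2f6 were opposite over all arrays (-0.63) and weakly related within genotypes (0.41).

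Among 12456 other named genes, those with the pattern most like each member over the 10 arrays were as follows. E2f8 was closest to Prr11 (r = 0.99), Stom (0.98) and the mitotic kinesin gene Kif20a (0.98), and E2f7 to Usp1, Kif18b and Kif14 (0.97 each). E2f1 was closest to the splicing factor gene Srsf2 (0.98) and the histone genes H2bc18 and H2ax (0.97 each). E2f2 was closest to Coro2b and Mpp1 (0.97 each) and Ppp1r14b (0.96), and E2f3 to Lsm2 (0.98), P4hb (0.97) and Phf5a (0.96). E2f4 was closest to the forkhead gene Foxp4 (0.98), Eif4g2 and Map3k11 (0.97 each). E2f6 was closest to Polr1b, a subunit gene of RNA polymerase I (0.99), Mcmbp (0.98) and Trap1 (0.98). E2f5, near the lower limit of measurement, was closest to Thap7 (0.97), Pagr1a and Sash3 (0.89 each).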

How the data were processed

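RNA of sorted DP thymocytes was measured on 10 Affymetrix arrays, each taken as a separate mouse. Per the submitters' processing notes the authors used RMA, with no version given, and the deposited values are intensity on a linear scale; the array's genome build is not given in the sources used here. Here log2 was taken of the deposited intensity with no added constant. Of 34760 probe sets, 21640 carried 1 gene symbol and stood for 19937 genes, each by its probe set of highest mean; 1321 with several symbols and 11799 with none were not used. Genes entered the test where 2 or more arrays were at or above their own 40th percentile.

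All arrays entered 1 linear model in limma 3.58.1 (R 4.3.3) with a mean for each genotype (lmFit and eBayes, residual degrees of freedom 6, prior 5.68), with 7 contrasts. P-values are two-sided and adjusted by Benjamini-Hochberg over 13138 genes, and calls use a threshold of 0.05. Verbs of change are used for called genes. The steps were also run on simulated data with independent noise for each gene and array. That run cannot show how often calls are wrong where many genes of an array shift together. The labels name the arrays of a genotype as biological replicates, which were taken as separate mice. The number of arrays limits the precision.

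The members and gene lists were chosen with earlier results of these data known. Named genes are all 8 members, Tcf3 and Tcf12, per list the called members (up to 6 of largest difference) or otherwise the 2 of largest difference, and the 3 genes most correlated with each member, clone and predicted-gene symbols passed over. Genes given outside this rule are said to be chosen after their values were seen, as were Rb1, Rbl1, Slc25a31, Smc1b, Tuba3b and, in HEBKO, Gins1. Of the same-numbered arrays in different genotypes, 13 pairs had correlations of their deviations from -0.29 to 0.48, with 10 over 0.1. Pairs with different numbers ran from -0.48 to 0.41. Deviations are taken from each group's own mean, so these values depend on one another and cannot settle whether a number marks a shared batch. The main fit has no term for the number, and 1 alternative has. The 19 alternatives changed the intensity filter (none, or the 60th percentile), normalisation (renewed quantile, 1 median), the choice of probe set, the moderation (robust with a trend, using statmod 1.5.0), the weights of the arrays, the groups fitted, a block for the replicate number, and each array left out in turn. Promoter windows are from RefSeq (GRCm38.p6).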

Additional observations from a re-analysis of the deposited data

How the results depend on the processing

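The falls of E2f2 and the rise of E2f6 in DKO against WT passed in all 19 alternatives, with values of -1.15 to -0.87 and 0.78 to 0.93. E2f4 passed in 16 of 19 (-1.04 to -0.69). The number of members called in DKO against WT was 2 to 3, and it was 0 in every alternative for HEBKO and E2AKO against WT. With arrays left out in turn, members called ran from 0 to 3 for DKO against HEBKO and from 1 to 3 for DKO against E2AKO, and S-phase targets called in HEBKO against WT from 0 to 6. Array weights called 3 S-phase targets in DKO and 5 in HEBKO, and fitting only the groups compared called 2 members between DKO and HEBKO; the cause was not tested. The replicate block called 3 members in DKO against WT and changed no call of a member. Whether the numbers mark a shared batch is not known. The interaction could not be fitted with only the groups compared. Of 24 called gene values, 7 kept direction and call throughout and 0 turned direction; 8 of 46 uncalled values passed in at least 1 alternative, and 18 changed sign. Groups of 2 mice leave wide intervals, low-intensity genes such as E2f5 understate change, array signal does not measure protein, and markers of other stages moved with DKO.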
